A study of Mus musculus with 16 samples.

Results

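The transcripts followed here are those of 10 genes, which are the metallothioneins Mt1 and Mt2 and the genes Fkbp5, Serpina6, Tsc22d3, Sgk1, Zbtb16, Klf9, Dusp1 and Errfi1, which are linked to glucocorticoid hormone. They were taken by symbol from a table of 47729 genes, and all 10 of 10 had enough reads to be tested together with 15684 genes in all. RNA was extracted from livers of wild-type C57BL/6 male mice and sequenced in 16 libraries, each made from the RNA of 3 mice mixed in equal parts. The 6 groups were 1-month-old and 6-month-old mice without treatment (2 libraries per age) and mice of both ages taken 2 days or 6 days after a single intraperitoneal injection of diethylnitrosamine (DEN), a liver carcinogen that alkylates DNA after activation in hepatocytes (3 libraries per age and day). The younger mice were 3 to 4 weeks old by their age label, and the dose was 25 mg/kg by the labels, whereas the methods give it per gram of body weight. No control library is labelled as day 2 or day 6, and no vehicle injection is named, so DEN, injection and the days that passed cannot be told apart. Neither the hour at which livers were taken nor the feeding state is stated in the sources read for this work. In these pools fewer cells of a type and less RNA per cell cannot be told apart, and the p-values measure the spread between pools.

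Glucocorticoids, in the mouse mainly corticosterone, are secreted by the adrenal cortex in a daily rhythm and in stress. They bind the glucocorticoid receptor, which leaves its chaperone complex, enters the nucleus and binds palindromic DNA elements near its target genes. In the liver these targets serve fuel supply and damp inflammation, and several of them, among them Fkbp5, Tsc22d3, Sgk1 and Zbtb16, are used across tissues as readouts of receptor activity. Metallothioneins are small proteins rich in cysteine that bind zinc and copper, and the liver is a main site of their synthesis. Their genes are induced by metals through metal response elements (MRE) bound by the factor MTF-1, and by glucocorticoids, inflammation and oxidants.

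Mt1 and Mt2 are neighbours on chromosome 8. Mt2 (ENSMUSG00000031762) lies at 94172618 to 94173567 and Mt1 (ENSMUSG00000031765) at 94179089 to 94180325 on the same, plus strand of GRCm38, with 5521 bases between the end of Mt2 and the start of Mt1. The 250 bases just before each annotated start are shown because the age difference described next was shared by both genes. They are RefSeq sequence of GRCm38.p6, plus strand, from chr8:94178839-94179088 for Mt1 and chr8:94172368-94172617 for Mt2, and capitals mark matches to the MRE core TGCACNC or TGCGCNC on either strand.
Mt1: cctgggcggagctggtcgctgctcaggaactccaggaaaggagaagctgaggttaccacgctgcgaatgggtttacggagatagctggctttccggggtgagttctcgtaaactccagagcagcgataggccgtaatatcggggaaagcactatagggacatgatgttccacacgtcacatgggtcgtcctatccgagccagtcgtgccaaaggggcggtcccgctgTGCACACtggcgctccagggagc
Mt2: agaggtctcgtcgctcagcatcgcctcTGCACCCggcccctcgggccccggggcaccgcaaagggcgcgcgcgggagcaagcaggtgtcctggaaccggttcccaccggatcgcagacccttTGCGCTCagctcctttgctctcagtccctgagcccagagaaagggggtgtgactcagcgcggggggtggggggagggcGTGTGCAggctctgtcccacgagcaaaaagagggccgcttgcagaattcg
In the whole window of 300 bases, which also holds the first 50 bases of the transcript, the Mt1 window held 3 matches to the MRE core and the Mt2 window 4. Of 32851 RefSeq promoter windows of this length, 25.7% held any match, 1.97% held at least as many as Mt1 and 0.517% at least as many as Mt2. Neither window held the glucocorticoid half-site AGAACA, which 18.97% of all windows held. A match is a description of letters only, and a missing one says nothing about sites elsewhere.

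Facts of the whole series that touch these genes were few. Total counts ranged from 19039330 to 34459774 per library. The libraries of a group differed in their circadian clock genes, which was measured by a clock score, the mean log2 CPM (counts scaled to library size) of 9 clock genes such as Dbp, Per3 and Nr1d1 minus that of 5 genes of the opposite phase such as Arntl and Npas2. The score was between -2.87 and -1.47 in 3 libraries, all from the younger age (replicate 2 of the controls, replicate 3 of day 2 and replicate 2 of day 6), and between -0.461 and 4.38 in the other 13. Mitochondrial transcripts took 2.18% to 5.28% of counts and were lowest in day 6 replicate 2 and control replicate 2 of the 1-month-old mice. Hepatocyte markers summed to 45725 to 74796 CPM in the 1-month libraries and to 40344 to 46259.6 CPM in the 6-month libraries, so the tissue label was met by its markers, although Alb, the albumin gene, is listed at 0 in all 16 libraries.

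Both metallothionein transcripts were far lower at 6 months than at 1 month, in controls and after DEN alike. Averaged over control, day 2 and day 6, Mt1 was lower by 7.36-fold and Mt2 by 10.6-fold. All 8 libraries from 6-month-old mice lay below all 8 from 1-month-old mice for both genes.

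At 1 month, Mt1 stood at 104 and 100.3 CPM in the control libraries, at 147, 69.5 and 34.9 CPM on day 2 and at 102, 128 and 68.2 CPM on day 6. In 6-month-old mice the control libraries of Mt1 held 8.73 and 14.7 CPM, those of day 2 held 24.6, 13.1 and 6.57 CPM and those of day 6 held 12.9, 11.1 and 12.6 CPM. The lowest 1-month library, a day 2 library, was thus above the highest 6-month library, which was also of day 2. Mean levels of Mt1 were 94.3 ± 35.8 CPM (SD, n = 8) at 1 month and 13.1 ± 5.36 CPM (SD, n = 8) at 6 months. The log2 fold change averaged over the 3 conditions was -2.88 (standard error (SE) 0.317, adjusted p = 4.21e-05, by the quasi-likelihood test of edgeR, adjusted over all genes tested).

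Mt2 held 54.0 and 75.0 CPM in the controls at 1 month, 72.4, 26.9 and 22.7 CPM on day 2 and 74.0, 103 and 34.4 CPM on day 6. At 6 months the same gene held 3.27 and 7.68 CPM in the controls, 10.2, 3.80 and 3.22 CPM on day 2 and 4.57, 3.48 and 6.42 CPM on day 6. Again the ages did not overlap, and the highest 6-month library was replicate 1 of day 2 for both metallothioneins. The means of Mt2 were 57.8 ± 28.2 CPM (SD, n = 8) and 5.33 ± 2.55 CPM (SD, n = 8), with an averaged log2 fold change of -3.40 (SE 0.365, adjusted p = 3.35e-05, edgeR). Of 554 distinct 50-base stretches of the Mt2 transcripts, 45.8% are also found in Gm45774, a gene annotated on the opposite strand that the count table does not list, and since it is unknown whether counting used strand, reads from both cannot be told apart. Mt1 shared no 50-base stretch with another gene, and the longest run common to Mt1 and Mt2 was 20 bases.

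**Figure D1:**
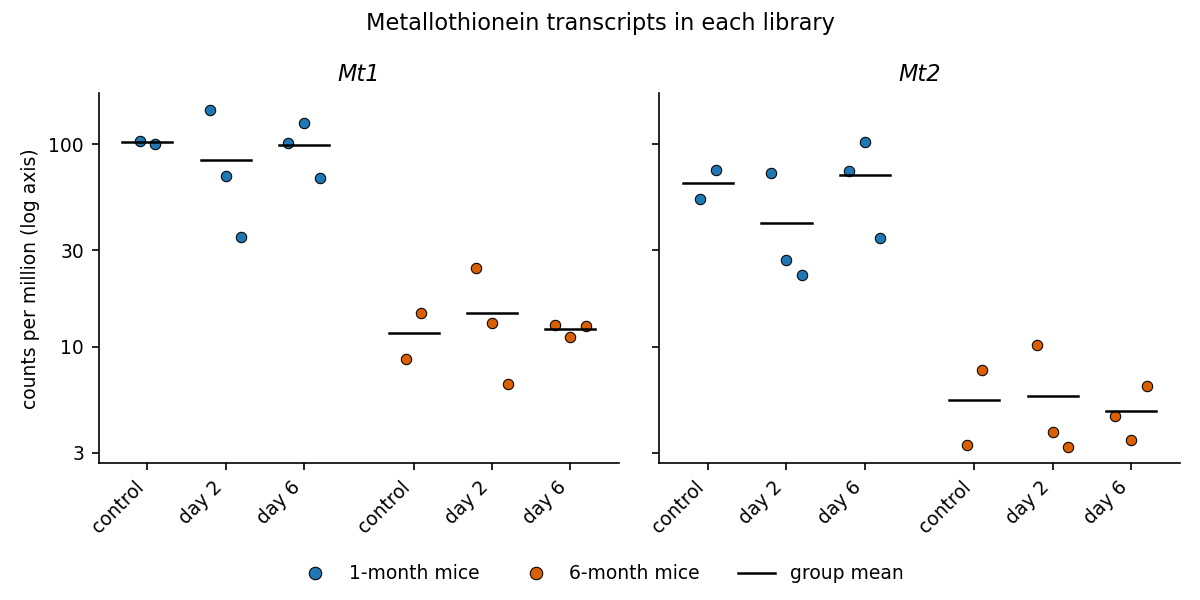
CPM of Mt1 (left) and Mt2 (right) on a log axis, with 1 point per library and a line at the mean of each group of 2 or 3 libraries. For both genes the 8 points of 1-month-old mice lie above the 8 points of 6-month-old mice, whereas control, day 2 and day 6 overlap within each age.

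The age difference of the metallothioneins was present before any treatment. Between the control groups, Mt1 was lower by 8.67-fold at 6 months (log2 fold change -3.12, 95% interval -4.45 to -1.78, adjusted p = 0.0250, edgeR) and Mt2 by 11.6-fold (log2 fold change -3.53, 95% interval -5.05 to -2.01, adjusted p = 0.0252, edgeR). With 2 libraries per control group this call rested on single libraries. Without replicate 1 of the 6-month controls, the log2 fold changes were -2.79 for Mt1 and -3.07 for Mt2, with an adjusted p of 0.233 for each (edgeR). Without replicate 2 of the same group they were -3.55 (adjusted p = 0.110, edgeR) and -4.30 (adjusted p = 0.0874, edgeR), and without replicate 2 of the 1-month controls -3.14 (adjusted p = 0.0916, edgeR) and -3.28 (adjusted p = 0.126, edgeR).

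Mt1 and Mt2 together made up 57.6 to 231 CPM in the 1-month libraries (median 167) and 9.79 to 34.8 CPM in the 6-month libraries (median 17.2). The ratio of Mt1 to Mt2 in CPM was 1.24 to 2.58 at 1 month (median 1.73) and 1.92 to 3.44 at 6 months (median 2.54), so these ranges overlapped. The other metallothionein genes of the cluster, Mt3 and Mt4, which are known from brain and from stratified epithelium, had 2 counts and 0 counts in all 16 libraries together. A floor of 3 counts per library corresponds to 0.0809 to 0.151 CPM, and no fold change was computed for them.

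Among the genes linked to glucocorticoid hormone, 4 were lower at 6 months in the average over conditions, namely Fkbp5, Serpina6, Tsc22d3 and Sgk1. Zbtb16, Klf9, Dusp1 and Errfi1 did not pass. With the metallothioneins this made 6 of 10 genes lower and 0 of 10 higher at an adjusted p under 0.1, where 10.5% of all genes tested were lower and 22.6% were called in either direction. The median log2 fold change was -0.91 over the 10 genes and -0.01 over all genes tested. No overlap between the 8 and 8 libraries, with 6 months lower, was seen for 3 of the 10 genes (Mt1, Mt2 and Fkbp5) and for 1.71% of all genes tested.

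**Figure D2:**
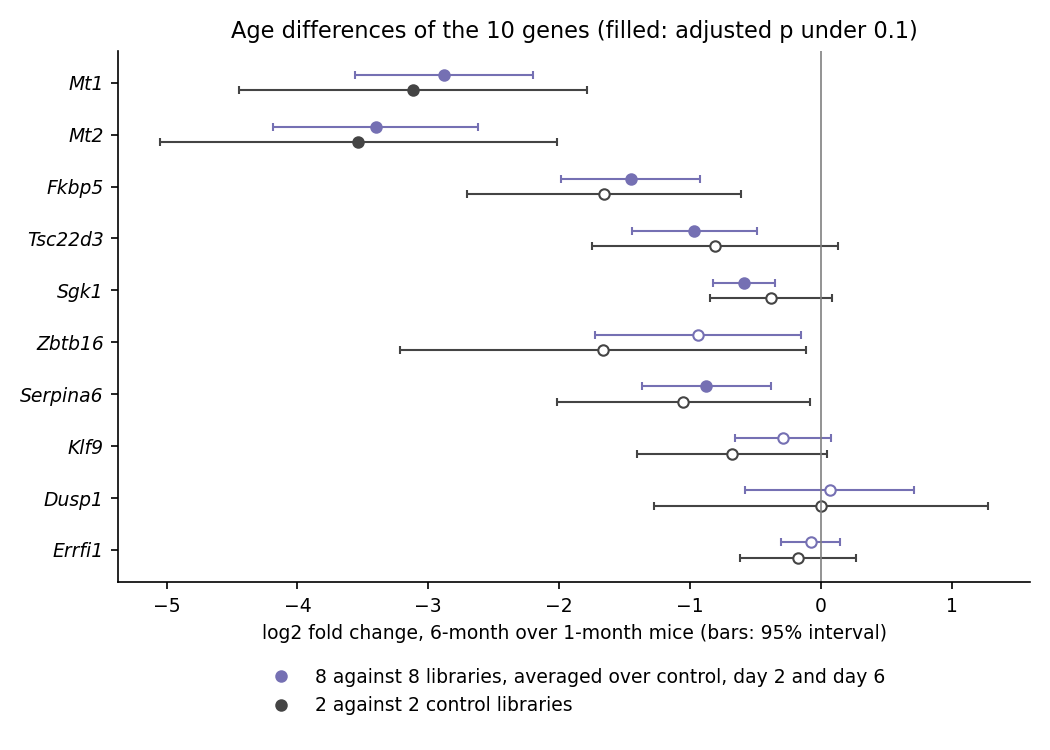
Log2 fold change of 6-month over 1-month mice for each of the 10 genes (horizontal axis), with 95% intervals, averaged over control, day 2 and day 6 (purple) and between control libraries alone (grey). Filled points passed an adjusted p under 0.1 by edgeR, which were 6 genes in the average and Mt1 and Mt2 in the controls, and Dusp1 and Errfi1 lie close to 0.

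Fkbp5 (ENSMUSG00000024222, chromosome 17 of GRCm38 from 28399095 to 28517524, minus strand) encodes a co-chaperone of the HSP90 complex that lowers the affinity of the glucocorticoid receptor for its hormone. At 1 month it held 149 and 95.9 CPM in the controls, 78.4, 77.1 and 58.1 CPM on day 2 and 239, 82.2 and 86.7 CPM on day 6. At 6 months its levels were 46.5 and 31.3 CPM in the controls, 52.0, 44.1 and 25.5 CPM on day 2 and 48.5, 36.2 and 25.5 CPM on day 6. Every 1-month library thus exceeded every 6-month library, although replicate 1 of day 6 stood far above the other 1-month libraries. The averaged log2 fold change of Fkbp5 was -1.45 (SE 0.249, adjusted p = 0.0014, edgeR), which is 2.74-fold lower, and -1.66 between the controls (95% interval -2.71 to -0.61, adjusted p = 0.132, edgeR).

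Serpina6 (ENSMUSG00000060807, chromosome 12 of GRCm38 from 103646630 to 103657212, minus strand) encodes corticosteroid-binding globulin, the plasma carrier of corticosterone made by hepatocytes. The control libraries at 1 month held 436 and 264 CPM, those of day 2 held 451, 458 and 300.2 CPM and those of day 6 held 391, 298 and 376 CPM. At 6 months Serpina6 was measured at 154 and 184 CPM in the controls, at 289, 208 and 117 CPM on day 2 and at 382, 190.2 and 135 CPM on day 6. The ages overlapped through the first day 2 and first day 6 library of the 6-month-old mice, whereas the 3 lowest of the 1-month libraries were those of lowest clock score. Serpina6 had means of 372 ± 75.8 CPM at 1 month and 207 ± 88.1 CPM at 6 months (SD, n = 8 each), with an averaged log2 fold change of -0.87 (SE 0.229, adjusted p = 0.0184, edgeR).

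Tsc22d3 (ENSMUSG00000031431, chromosome X of GRCm38 from 140539528 to 140600659, minus strand) encodes GILZ, a leucine zipper protein that mediates anti-inflammatory actions of glucocorticoids. It was measured at 127 and 296 CPM in the 1-month controls, at 194, 220.3 and 302 CPM on day 2 and at 258, 123 and 165 CPM on day 6. In the 6-month-old mice it reached 156 and 85.4 CPM in the controls, 132, 75.7 and 96.0 CPM on day 2 and 131, 79.1 and 91.3 CPM on day 6. Replicate 1 was the highest of each 6-month group, and these libraries overlapped with the lowest libraries of 1 month. The averaged log2 fold change of Tsc22d3 was -0.97 (SE 0.224, adjusted p = 0.00978, edgeR), and between the controls it was -0.81 (95% interval -1.75 to 0.13, adjusted p = 0.504, edgeR).

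Sgk1 (ENSMUSG00000019970, chromosome 10 of GRCm38 from 21882184 to 21999903, plus strand) encodes a serine/threonine kinase that acts on ion channels and on forkhead factors. Its levels at 1 month were 24.6 and 33.8 CPM in the controls, 58.6, 60.9 and 52.2 CPM on day 2 and 28.8, 26.3 and 34.3 CPM on day 6. At 6 months the levels of Sgk1 were 23.7 and 21.3 CPM in the controls, 32.3, 22.8 and 22.04 CPM on day 2 and 21.8, 23.9 and 30.1 CPM on day 6. The 3 libraries of day 2 at 1 month were above all other 13 libraries, which ranged from 21.3 to 34.3 CPM. The averaged log2 fold change with age was -0.59 (SE 0.111, adjusted p = 0.00272, edgeR), and between the controls, which leave day 2 out, it was -0.38 (95% interval -0.84 to 0.09, adjusted p = 0.542, edgeR).

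One of the Sgk1 promoter windows carried a full palindrome of the glucocorticoid half-site, that is AGAACA and its reverse complement with 3 bases between them. It is shown because only 3 of 32851 windows (0.00913%) held this arrangement, and it lies at chr10:21993701-21993715 of GRCm38.p6, 189 to 175 bases before the start of that transcript, with the half-sites in capitals.
Sgk1 palindrome: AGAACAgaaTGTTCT
The half-site alone was found in other Sgk1 windows and in 1 window of Tsc22d3. It was found in none of the windows of Fkbp5, Klf9, Dusp1 and Errfi1. Of the 10 genes, 8 had a window in the table, with 16 windows in all, and Zbtb16 and Serpina6 had none. The counts are per gene and do not tell which start was used.

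Zbtb16 (ENSMUSG00000066687, chromosome 9 of GRCm38 from 48654311 to 48835945, minus strand) encodes PLZF, a zinc finger transcription factor. It held 61.9 and 73.3 CPM in the 1-month controls, 11.3, 3.36 and 10.8 CPM on day 2 and 61.3, 58.2 and 16.2 CPM on day 6. The 6-month controls held 37.0 and 6.06 CPM, the libraries of day 2 held 8.04, 12.7 and 14.1 CPM and those of day 6 held 12.3, 13.9 and 18.01 CPM. The high values were those of the 1-month controls and of the first and second day 6 library of that age, and 1 control library at 6 months was also above the others. Averaged over conditions the log2 fold change of Zbtb16 with age was -0.94 (95% interval -1.73 to -0.15, adjusted p = 0.1003, edgeR), just outside the threshold. It passed under 5 of 7 alternatives and in 3 of the 16 fits that left out 1 library, with an adjusted p as low as 0.00107.

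Klf9 (ENSMUSG00000033863, chromosome 19 of GRCm38 from 23141226 to 23166911, plus strand) encodes a zinc finger transcription factor that glucocorticoids and thyroid hormone induce. At 1 month it was measured at 116 and 132 CPM in the controls, at 107, 41.4 and 111 CPM on day 2 and at 82.7, 109.5 and 80.8 CPM on day 6, and the 8 libraries at 6 months held 70.2 to 101 CPM. Its lowest library was replicate 2 of day 2 at 1 month. The averaged log2 fold change was -0.29 (95% interval -0.66 to 0.08, adjusted p = 0.283, edgeR).

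Dusp1 (ENSMUSG00000024190, chromosome 17 of GRCm38 from 26505590 to 26508519, minus strand), which encodes a phosphatase of MAP kinases, held 48.1 and 66.6 CPM in the 1-month controls, 115, 89.3 and 36.1 CPM on day 2 and 82.0, 24.4 and 88.9 CPM on day 6. At 6 months it held 57.6 and 57.5 CPM in the controls, 69.0, 99.1 and 50.9 CPM on day 2 and 101, 105 and 39.9 CPM on day 6. The spread within a DEN group was up to several-fold at both ages, and the ages overlapped throughout. The averaged log2 fold change of Dusp1 with age was 0.068 (95% interval -0.58 to 0.72, adjusted p = 0.913, edgeR), an interval that leaves room for differences in either direction, and its sign turned under several of the other settings.

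Errfi1 (ENSMUSG00000028967, chromosome 4 of GRCm38 from 150853919 to 150868892, plus strand) encodes an inhibitor of the epidermal growth factor receptor. Per kilobase of annotated exon it had the highest mean level of the 10 genes. It held 1319 and 1408 CPM in the 1-month controls and 873 to 1237 CPM in the 6 DEN libraries of that age. At 6 months all libraries of Errfi1 lay between 973 and 1262 CPM. The averaged log2 fold change was -0.08 (95% interval -0.30 to 0.15, adjusted p = 0.684, edgeR), the narrowest interval of the 10 genes.

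**Figure D3:**
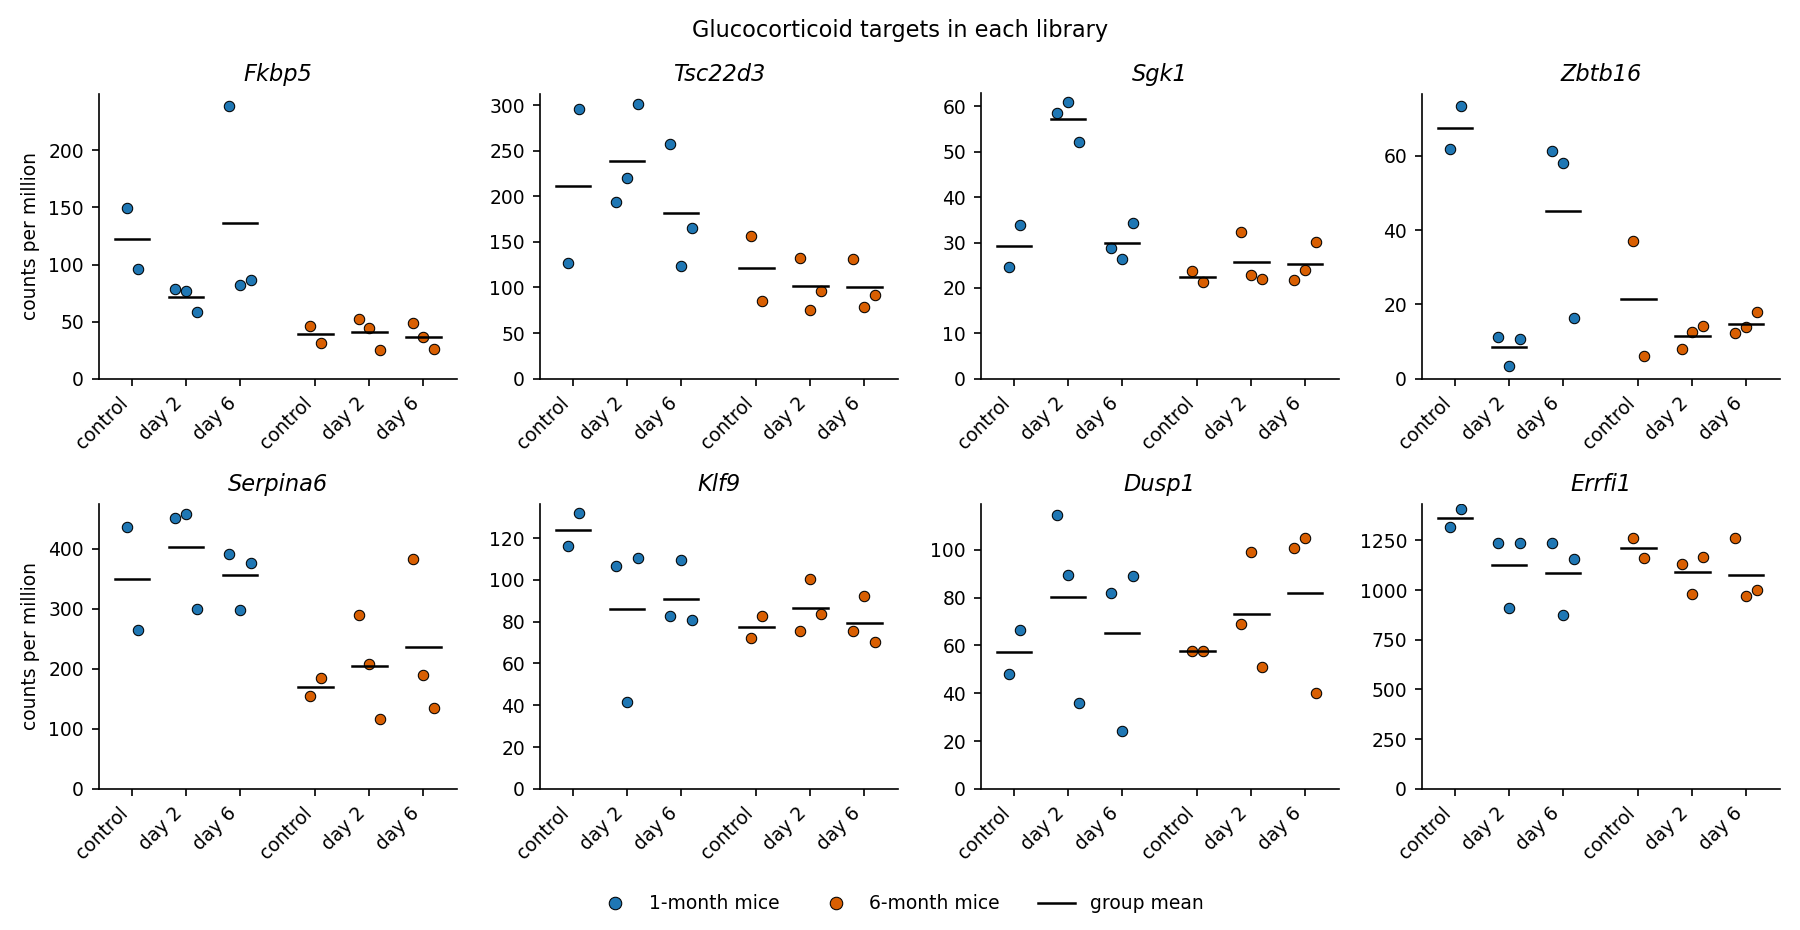
CPM of the 8 genes linked to glucocorticoid hormone, each panel with its own linear axis from 0, with 1 point per library and a line at each group mean. Fkbp5 shows no overlap between ages, Sgk1 is high in the 3 libraries of day 2 at 1 month, Zbtb16 is low there, and Dusp1 varies widely within groups.

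In CPM per kilobase of exon, the mean level over the 16 libraries was 319 for Errfi1, 164 for Serpina6, 53.7 for Mt2, 43.1 for Mt1, 36.5 for Tsc22d3, 21.3 for Dusp1, 18.6 for Klf9, 7.77 for Fkbp5, 6.60 for Sgk1 and 4.95 for Zbtb16. The length used is that of all annotated exons merged, which was 1246 bases for Mt1 and 588 for Mt2. It need not be the length of the transcripts present, and the order of genes on this scale depends on it. In CPM without this scaling, Mt1 exceeded Mt2 in every library (lowest ratio 1.24). The order differed between the ages. At 1 month the metallothioneins had medians of 107 (Mt2, range 38.6 to 175) and 81.1 CPM per kilobase (Mt1, range 28.0 to 118) and stood next after Errfi1 and Serpina6. At 6 months their medians were 7.11 (range 5.48 to 17.3) and 10.2 CPM per kilobase (range 5.27 to 19.8), below those of Tsc22d3 (21.6, range 17.4 to 36.0), Dusp1 (19.1, range 12.1 to 31.7) and Klf9 (16.5, range 14.6 to 20.9). The ranges of Mt1 and Mt2 overlapped at both ages. Those of Tsc22d3, Dusp1 and Klf9 overlapped at 6 months. At 1 month the range of Dusp1 (7.37 to 34.7) overlapped with both others, but Tsc22d3 (28.4 to 69.5) lay above Klf9 (8.59 to 27.4). Errfi1 and Serpina6 overlapped at 1 month and were apart at 6 months.

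Between the control groups of the 2 ages alone, 2 of 10 genes passed, which were Mt1 and Mt2, both lower at 6 months, where 2.67% of all genes tested were called and 1.06% were lower. A further 3 of the 10 genes, Fkbp5, Zbtb16 and Serpina6, had an unadjusted p under 0.05. This made 5 of 10 with such a p, where 1976 of all 15684 genes tested had one. Both 6-month controls lay below both 1-month controls for 8 of the 10 genes, and for 21% of all genes tested. The exceptions were Tsc22d3 and Dusp1.

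The study asked how the liver responds to DEN at each age. By edgeR, no member of this group of genes passed the threshold after DEN. At 1 month, 0 of 10 genes were called on day 2 (0.0191% of all genes tested were called) and 0 of 10 on day 6 (0.0% of all genes). At 6 months, 0 of 10 were called on day 2 (0.319% of all genes) and 0 of 10 on day 6 (0.249% of all genes). Day 6 against day 2 gave 0 of 10 at 1 month (0.00638% of all genes) and 0 of 10 at 6 months (0.0128% of all genes). These comparisons share the control or the day 2 libraries of an age. An unadjusted p under 0.05 was found for 2 of the 10 genes on day 2 at 1 month (1123 of all 15684 genes tested). Between the days at that age there were 3 of 10 (793 of 15684). The other 4 comparisons each held 0 of 10 (269 to 629 of 15684). DESeq2, the package that the study used, was also run on the same counts. It called Sgk1 and Zbtb16, 2 of the 10 genes, on day 2 at 1 month (91 genes in all, against 3 by edgeR). Between the days at 1 month it called 1 of the 10, Sgk1 (31 genes in all, against 1 by edgeR). In the other 4 comparisons it called 0 of the 10.

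**Figure D4:**
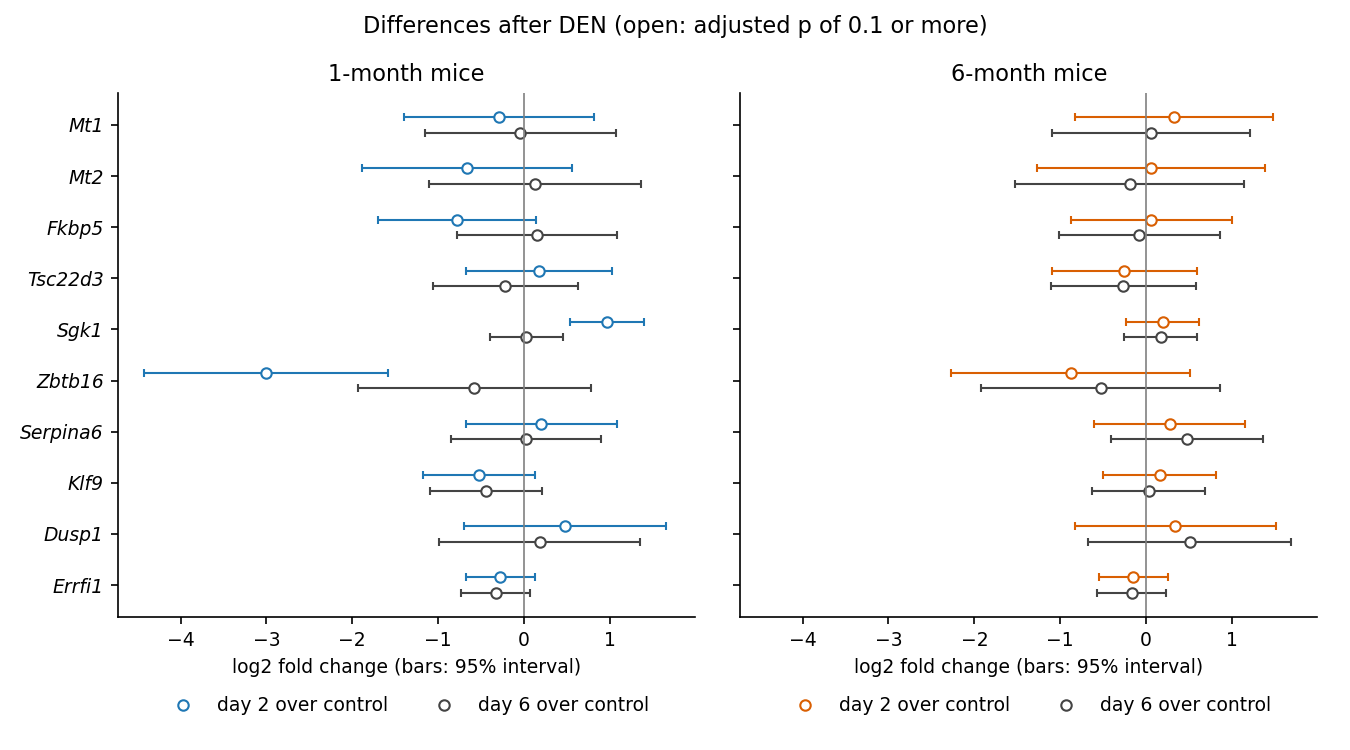
Log2 fold change of day 2 and day 6 over the controls of the same age for each gene, with 95% intervals, in 1-month mice (left) and 6-month mice (right). All points are open, since none reached an adjusted p under 0.1 by edgeR, and the intervals of Sgk1 and Zbtb16 on day 2 at 1 month do not include 0.

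On day 2 at 1 month, the 3 libraries lay below both controls for 4 of the 10 genes (Zbtb16, Fkbp5, Klf9 and Errfi1), as for 8.77% of all genes tested, and above both for 1 (Sgk1), as for 7.96%. The intervals of the difference included 0 for Fkbp5, Klf9 and Errfi1 and did not for Sgk1 and Zbtb16. Sgk1 had a mean of 29.2 ± 6.47 CPM (SD, n = 2) in the controls and 57.2 ± 4.52 CPM (SD, n = 3) on day 2, with a log2 difference of 0.97 (95% interval 0.54 to 1.40, adjusted p = 0.269 with edgeR and 0.00467 with DESeq2). On day 6 it held 29.8 ± 4.08 CPM (SD, n = 3), and the log2 difference of day 6 from day 2 was -0.94 (95% interval -1.32 to -0.56, adjusted p = 0.241 with edgeR and 0.00174 with DESeq2). All 3 libraries of day 2 lay above all 5 libraries of the controls and day 6. The clock scores of these day 2 libraries were 4.38, 3.47 and -2.41, so Sgk1 was high at both ends of the score.

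Zbtb16 had a mean of 67.6 ± 8.08 CPM (SD, n = 2) in the 1-month controls and of 8.48 ± 4.45 CPM (SD, n = 3) on day 2. The log2 difference was -3.00 (95% interval -4.42 to -1.59, adjusted p = 0.315 with edgeR and 0.0242 with DESeq2), the size of an 8.02-fold lower level. By day 6 the mean was 45.2 ± 25.2 CPM (SD, n = 3), and 1 of the 3 libraries, at 16.2 CPM, lay near those of day 2. The log2 difference of day 6 from day 2 was 2.42 (95% interval 1.10 to 3.74, adjusted p = 0.632 with edgeR and 0.113 with DESeq2). Fkbp5 had a log2 difference of 0.93 between these days (95% interval 0.09 to 1.77, adjusted p = 0.951, edgeR), which was 0.24 without replicate 1 of day 6.

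The remaining genes had log2 differences after DEN whose intervals included 0 in all 4 comparisons with controls. On day 2 at 1 month, Mt1 differed by -0.29 (95% interval -1.39 to 0.82) and Mt2 by -0.67 (95% interval -1.89 to 0.56). On day 2 at 6 months, Mt1 differed by 0.33 (95% interval -0.83 to 1.48) and Mt2 by 0.05 (95% interval -1.27 to 1.38). These intervals are wide, and each holds a change of 1 log2 unit in at least 1 direction. Errfi1 was measured more closely, at -0.27 (95% interval -0.68 to 0.13) on day 2 and -0.33 (95% interval -0.73 to 0.08) on day 6 at 1 month. Over the 10 genes the median log2 difference was -0.28 on day 2 and -0.01 on day 6 at 1 month and 0.11 and -0.03 at 6 months, where the medians over all genes tested were -0.01, -0.01, -0.00428 and -0.00203.

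Whether the response to DEN differed between the ages was tested directly. The difference of the responses passed for 0 of 10 genes on day 2 (0.00638% of all genes tested were called), for 0 of 10 on day 6 (0.0128% of all genes) and for 0 of 10 in the joint test over both days (0.00638% of all genes). An unadjusted p under 0.05 was found for 2, 0 and 2 of the 10 genes (699, 299 and 372 of all 15684 genes tested), and DESeq2 called 0 in each. The 2 genes were Sgk1 and Zbtb16. For Sgk1 the response on day 2 was lower by 0.78 log2 units at 6 months (difference -0.78, 95% interval -1.37 to -0.18, adjusted p = 0.943, edgeR), and for Zbtb16 the difference was 2.12 (95% interval 0.12 to 4.13, adjusted p = 0.943, edgeR).

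A test for any difference among the 6 groups called 5 of the 10 genes, where 7.27% of all genes tested were called. They were Mt2 (adjusted p = 0.00103, edgeR), Mt1 (adjusted p = 0.00157), Sgk1 (adjusted p = 0.00218), Fkbp5 (adjusted p = 0.0212) and Zbtb16 (adjusted p = 0.0370). Without the 3 libraries of lowest clock score, the adjusted p of Zbtb16 was 0.257.

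Other genes of the glucocorticoid pathway were described by lists. Of 16 genes for the receptor, its chaperones and coregulators and the enzymes that make or remove its hormone, 3 were higher and 3 lower at 6 months in the average over conditions (12.1% and 10.5% of all genes tested), with a median log2 fold change of -0.08. The receptor gene itself, Nr3c1, had a log2 fold change of -0.06 (adjusted p = 0.646, edgeR). Hsd11b1, which regenerates active hormone from its inert form, was lower (log2 fold change -0.50, adjusted p = 0.00688, edgeR), as were the steroid reductase Akr1d1 (-0.52, adjusted p = 0.00385) and the coactivator Ppargc1a (-0.95, adjusted p = 0.0136). Srd5a1, another steroid reductase, was higher (0.47, adjusted p = 0.00493), also between the controls alone (0.97, adjusted p = 0.0240).

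A separate list held 22 liver genes that glucocorticoids are known to induce. Of these, 0 were higher and 9 were lower at 6 months, where 12.1% and 10.5% of all genes tested were. The median log2 fold change of the 22 was -0.33. Igfbp1, which encodes a binding protein of insulin-like growth factors, was lower by -1.48 on the log2 scale (adjusted p = 0.00448, edgeR). The others named by the rule were the cell cycle inhibitor Cdkn1c (-1.03, adjusted p = 0.00186), the sulfotransferase Sult1a1 (-0.77, adjusted p = 0.000576) and Angptl4, an inhibitor of lipoprotein lipase (-0.64, adjusted p = 0.00359). Several of these genes also respond to insulin, fasting or the clock. Between the controls alone, 0 of the 22 passed.

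Of 15 genes that handle metals or oxidants, 13 could be tested, and 1 was higher and 2 were lower at 6 months, a share close to the 22.6% of all genes tested that were called. The median log2 fold change was -0.15. The lower genes were the zinc importers Slc39a4 (log2 fold change -0.79, adjusted p = 0.000722, edgeR) and Slc39a14 (-0.32, adjusted p = 0.0376), and the latter had a log2 fold change of -0.76 between the controls (adjusted p = 0.0779, edgeR). Hmox1, which degrades haem, was higher (0.76, adjusted p = 0.00731). Mtf1, the factor that binds the MRE, had a log2 fold change of 0.15 (adjusted p = 0.329, edgeR).

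Dusp1 is also an immediate early gene, a class transcribed within minutes of a stimulus. Of 14 immediate early genes, 8 were higher and 0 lower at 6 months (12.1% and 10.5% of all genes tested), with a median log2 fold change of 0.49. By smallest p these were Nr4a1 (3.32, adjusted p = 8.15e-05, edgeR), Fos (1.52, adjusted p = 0.00196), Atf3 (1.19, adjusted p = 0.00703) and Junb (1.21, adjusted p = 0.00952). The other 6 did not pass, among them Egr1 (-0.51, adjusted p = 0.574) and Myc (-0.89, adjusted p = 0.130), which were picked out after their values were seen. In the comparisons of DEN with controls, 0 genes of these 4 lists passed at either age.

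Markers of the cell types that a liver sample holds moved with age beside these genes. The counts below stand beside 12.1% of all genes tested that were higher and 10.5% that were lower at 6 months. Of 9 hepatocyte markers tested, 0 were higher and 6 lower at 6 months (median log2 fold change -0.37), and the rest did not pass. The lowest of them was Ahsg at -1.12. Hepatocytes are also the main source of metallothioneins and corticosteroid-binding globulin in the liver. Lymphocyte markers were higher for 4 of 6 genes (median 0.92) and summed to 2.73 to 4.92 CPM at 1 month and 5.43 to 11.99 CPM at 6 months. Macrophage markers were higher for 5 of 8 genes (median 0.40; sums 420.1 to 693 and 458 to 855 CPM), and endothelial markers were lower for 4 of 6 (median -0.37; sums 219 to 348 and 161 to 254 CPM). Stellate cell markers went both ways (2 higher and 2 lower of 7, median 0.19; sums 299 to 472 and 243 to 411 CPM), 1 of 7 cholangiocyte markers was lower (median 0.10; sums 37.1 to 68.6 and 48.0 to 84.1 CPM) and 0 of 4 neutrophil markers tested passed (median 0.52; sums 2.81 to 5.34 and 2.60 to 7.37 CPM). No marker of these lists was at 0 in all libraries, and the part of cell composition in the age differences was not tested.

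Within groups these genes varied more than most. The pooled SD of log2 CPM within the 6 groups was 0.904 for Zbtb16, 0.758 for Mt2, 0.743 for Dusp1, 0.685 for Mt1, 0.548 for Fkbp5, 0.517 for Serpina6 and 0.502 for Tsc22d3, and these 7 of 10 genes were above the 75th percentile of all genes tested. Klf9 had an SD of 0.402, Sgk1 of 0.227 and Errfi1 of 0.201, and the median over all genes tested was 0.271. Sgk1 and Errfi1 were thus the genes of this group whose pools differed least.

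Part of the spread went with the clock score. After both measures were centred on their group means over the 16 libraries, Serpina6 had a Pearson's r of 0.805 with the score (exact permutation within groups, two-sided, p = 0.000386, adjusted p over the 10 genes = 0.00386) and a Spearman's rho of 0.885 (adjusted p = 0.00579, exact permutation). The r was 0.847 without the 2 libraries farthest from the median score, 0.969 within the 1-month and 0.968 within the 6-month libraries, and 0.948 without the 3 libraries of lowest score. Fkbp5 had an r of 0.708 (exact permutation p = 0.0054, adjusted p = 0.0270), a rho of 0.724 (adjusted p = 0.00965, exact permutation) and an r of 0.694 without the 2 farthest libraries. Within the ages the r of Fkbp5 was 0.651 and 0.880.

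Dusp1 had an r of 0.712 with the clock score (exact permutation p = 0.0274, adjusted p = 0.0913), but its rho of 0.585 did not pass (adjusted p = 0.207, exact permutation). Its r was 0.482 without the 2 farthest libraries, 0.638 without the 3 libraries of lowest score, 0.740 within the 1-month and 0.644 within the 6-month libraries, and it passed in 6 of the 16 fits that left out 1 library. The other 7 genes did not pass, with Klf9 at an r of -0.394 (adjusted p = 0.709, exact permutation) and Mt1 at 0.528 (adjusted p = 0.352, exact permutation). The smallest p that these 5184 arrangements allow is 0.000193. Leaving out 1 library at a time, Serpina6 passed in all 16 fits (r 0.775 to 0.838, highest adjusted p = 0.0116, exact permutation). Fkbp5 passed in 13 of 16 (r 0.649 to 0.818), and its adjusted p was 0.1505 without replicate 3 of day 2 at 1 month and 0.101 and 0.181 without replicates 2 and 3 of day 2 at 6 months (exact permutation).

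**Figure D5:**
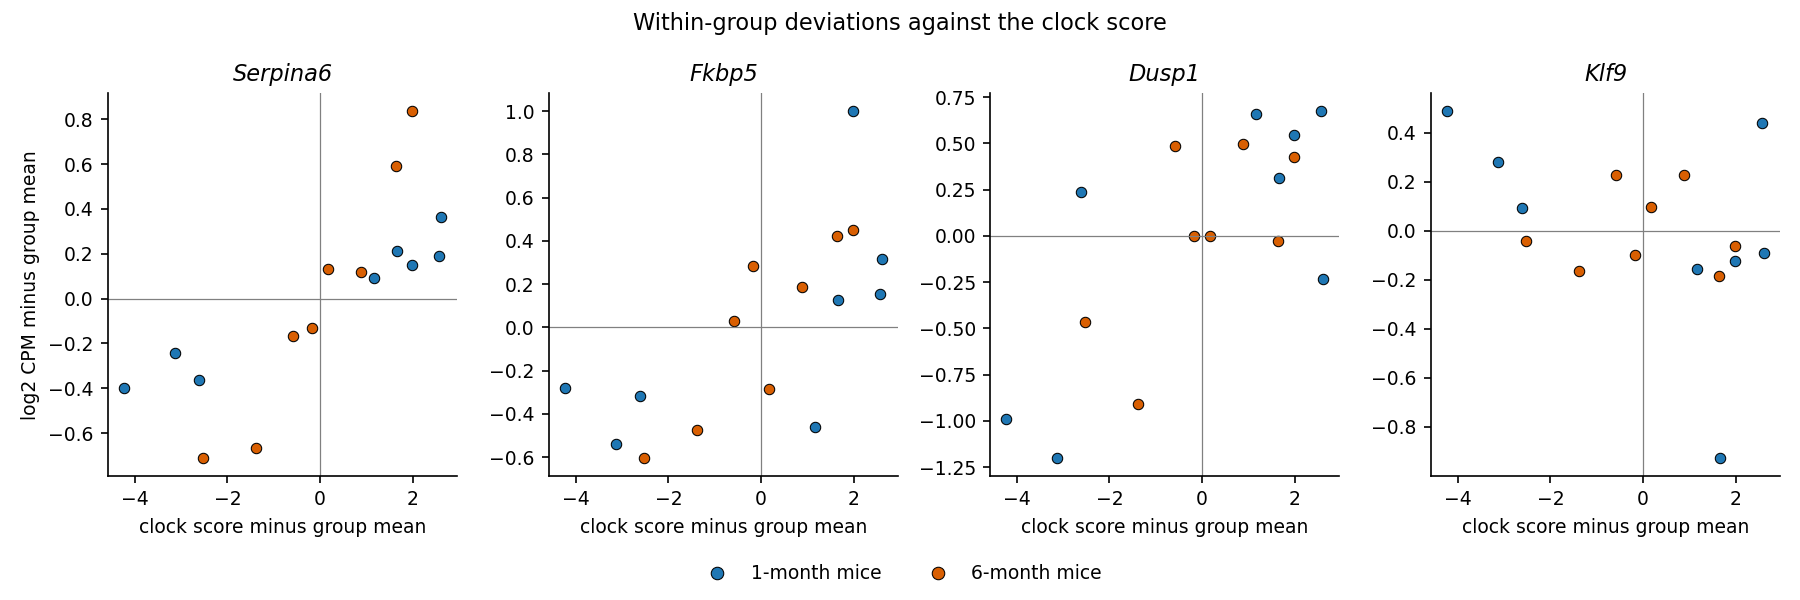
Deviation of log2 CPM from the group mean (vertical axis) against that of the clock score (horizontal axis) for Serpina6, Fkbp5, Dusp1 and Klf9, with 1 point per library. Points of both ages rise together for Serpina6 (r = 0.805) and Fkbp5 (r = 0.708), and those of Klf9 do not (r = -0.394).

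The age differences were compared with and without the clock as a term. Of the 6 genes that were lower in the average over conditions, all 6 stayed below an adjusted p of 0.1 when the clock score was added to the model and when the 3 libraries of lowest score were left out. Between the controls alone, the covariate fit called 4 of the 10 genes in place of 2, where it called 818 genes in all in place of 418. How much of the differences came from the hour of collection was not tested.

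Of the 45 pairs of genes, 29 had a positive correlation within groups, and 2 pairs passed after adjustment over the 45. Mt1 and Mt2 varied together with an r of 0.878 (exact permutation p = 0.000772, adjusted p = 0.0347) and a rho of 0.947 (adjusted p = 0.0434, exact permutation), and r was 0.850 without the 2 farthest libraries. Fkbp5 and Serpina6 had an r of 0.690 (exact permutation p = 0.00444, adjusted p = 0.0998) and a rho of 0.794 (adjusted p = 0.0477, exact permutation), and r was 0.780 without the 2 farthest libraries. Neither call held in all of the fits that left out 1 library. Such a fit also allows fewer arrangements, which raises the smallest p it can reach. Without replicate 2 of day 2 at 6 months, Mt1 and Mt2 had an r of 0.899 but an adjusted p of 0.104 (exact permutation). Over the 16 fits that left out 1 library, Mt1 and Mt2 passed in 7 (r 0.826 to 0.899) and Fkbp5 and Serpina6 in 2 (r 0.604 to 0.871).

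The genes most like each of the 10 were sought among those with a mean of at least 1 CPM by the same within-group r over 16 libraries, as a description without a test, in which high values arise among so many genes. Serpina6 was most like Fbl (r = 0.991), Enoph1 (0.965) and Igfbp4 (0.962), and Fkbp5 was most like Polr3f (0.955), Eif3j1 (0.950) and St3gal5 (0.945). Mt1 was followed most closely by Wnk4 (0.923), Proser1 (0.915) and Zc3h18 (0.899), and Mt2 by Frrs1 (0.946), Tor1aip1 (0.925) and Zc3h18 (0.925), so that Zc3h18 was named for both. The highest values were 0.951 for Klf9 (Zfp182), 0.933 for Dusp1 (Prickle1), 0.929 for Zbtb16 (Zfp563), 0.888 for Errfi1 (Sult5a1), 0.850 for Tsc22d3 (Ppp1r3b) and 0.848 for Sgk1 (Ushbp1).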

How the data were processed

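Livers of 1- and 6-month-old mice were sequenced by the authors (TruSeq libraries, NextSeq), who used TopHat2 2.0.13 and GRCm38 for mapping. Cutadapt, Cufflinks 2.2.1 and Cuffnorm stand in the submitters' processing notes as well. Raw counts for each gene were deposited, without a statement in these sources on the counting program or on strand. The columns of the authors' own fold changes and p-values from DESeq2 1.10.1 and 16 columns of normalized counts were not used. The table holds 47729 genes, of which 10 without counts were left out.

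Counts were scaled by TMM and filtered by filterByExpr, which left 15684 genes, and tested with edgeR's quasi-likelihood test (edgeR 4.0.16 and limma 3.58.1 under R 4.3.3) in a single model of 6 groups, with Benjamini-Hochberg adjustment and calls at 0.1. The dispersion corresponded to a common coefficient of variation of 0.218. Fold changes use a prior count of 0.125 and log2 CPM a prior count of 2. The main alternative tool was DESeq2 1.42.0. Exon lengths came from GENCODE M21 and promoter windows from RefSeq. The scripts were tested on simulated counts. Python 3.11.15 with pandas 2.3.3 was used for tables and plots.

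Total counts were 19039330 to 34459774 per library (median 26125036.5), groups came from the labels, and controls of 2 libraries borrow their spread from all groups. The genes and lists were chosen with earlier results of these data known. The genes named are the 10 genes, up to 4 genes of each list with the smallest p among those called in any comparison, and up to 3 genes most like each of the 10 in their within-group variation. Of these, 1 gene is not reported here.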

Additional observations from a re-analysis of the deposited data

How the results depend on the processing

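For the 6 genes lower at 6 months in the average over conditions, all 7 alternatives and all 16 fits that left out 1 library each called 6 to 8 of the 10 genes, and the 6 stayed called in each. Between the controls alone the count of 2 rose to 5 with no filter on low counts (794 genes called in all, against 418) and to 4 with the clock score as covariate (818 genes in all), and it ranged from 0 to 3 over the left-out libraries. It was 0 without replicate 1 of the 6-month controls and 1 without replicate 2 of the 6-month or of the 1-month controls. On day 2 at 1 month, 0 genes became 2 with no filter and 2 with DESeq2 (131 and 91 genes in all, against 3). Between the days at 1 month, 0 became 2 with no filter and 1 with DESeq2 (86 and 31 genes in all, against 1). In the joint interaction test 0 became 1 with no filter (Zbtb16; 48 genes in all, against 1). The other comparisons with DEN kept 0 under every alternative run. The test among the 6 groups called 4 to 7 genes in place of 5, and 4 to 6 over the left-out libraries.

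Dusp1 changed sign. Between the controls its log2 difference of 0.0052 became -0.20 with the clock covariate and -0.21 (without replicate 1 of the 1-month controls) to 0.26 over the left-out libraries. In the age average 0.068 became -0.045 with the covariate, -0.10 when the 3 libraries of lowest clock score were dropped and -0.068 to 0.17 over the left-out libraries. The pairs that passed fell from 2 to 1 with DESeq2 size factors and to 0 to 2 over the left-out libraries, with a lower count in 13 of 16, and the genes that passed with the clock score ranged from 1 to 3 in place of 3. That count was 1 without replicate 3 of day 2 at 1 month and without replicate 2 or replicate 3 of day 2 at 6 months. The causes were not tested.

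For libraries of different groups with the same number, the median correlation of their deviations was 0.048, with 16 of 36 above 0.1. For other numbers it was -0.041, with 16 of 70 above 0.1. The ranges overlapped widely (-0.302 to 0.588 and -0.588 to 0.537). The numbers were not taken to pair samples in the main model, and a replicate block was run as an alternative. With a replicate block the controls of the ages gave 3 genes (Fkbp5 added), the age average 7 (Zbtb16 added, as also with no filter, DESeq2, DESeq2 size factors and the clock covariate, and without replicate 2 of day 2 or replicate 3 of day 6 at 1 month or replicate 1 of the 6-month controls) and the test among groups 6 (Serpina6 added), and the other comparisons kept 0. Fits of the compared groups alone were not run for the age average, the joint test and the test among the 6 groups, which use all groups. Mt2 at 6 months rests on 69 to 326 counts per library. With 2 controls per age, intervals of the DEN differences leave room for moderate changes in most of these genes.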

Other observations

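Other gene lists that share regulators with these genes are given as counts in the average over conditions, where 12.1% of all genes tested were higher and 10.5% lower at 6 months. Of 18 acute phase genes, which inflammation and glucocorticoids induce together in the liver, 8 were higher and 4 lower at 6 months (median log2 fold change 0.23). The 4 with the smallest p were Orm2, an acid glycoprotein of plasma (1.79, adjusted p = 7.58e-05, edgeR), Saa3, a serum amyloid A gene (1.08, adjusted p = 0.000161), Socs3, an inhibitor of cytokine signalling (1.24, adjusted p = 0.00126), and Lcn2, an iron-sequestering lipocalin (1.24, adjusted p = 0.00305). Of 15 fasting and insulin-suppressed genes, whose share called was near that of all genes tested (22.6%), 1 was higher, which was Cidec, a lipid droplet gene (1.36, adjusted p = 0.0173), and 3 were lower, among them Cyp4a14 (-2.19, adjusted p = 0.0611) and Creb3l3 (-0.32, adjusted p = 0.0428).

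Among 9 genes of other serpins and of plasma carriers outside that family, 1 was higher and 4 were lower at 6 months (median log2 fold change -0.24). Most of the lower genes were carriers that are not serpins. Serpina7, the thyroxine-binding globulin gene, was higher (1.69, adjusted p = 1.8e-05, edgeR), whereas Afm (-0.75, adjusted p = 0.00169) and Ttr (-0.39, adjusted p = 0.0305) were lower. Serpina3n, an acute phase serpin of the same cluster as Serpina6, was the 1 gene of all the lists that passed after DEN, with a log2 difference of 1.22 on day 2 at 6 months (adjusted p = 0.0130, edgeR). It belongs to a family of close copies that may share reads.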
